A study of Drosophila melanogaster with 12 samples.

Results

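The genes described here are 8 genes of the fly phototransduction cascade, *norpA*, *trp*, *trpl*, *inaD*, *inaC*, *Galphaq*, *Arr1* and *Arr2*, as measured in the forelegs of male *Drosophila melanogaster*. They were taken by FlyBase identifier from a table of raw counts for 17807 genes, and all 8 identifiers were present. RNA was sequenced in 12 libraries, 3 biological replicates for each of 4 genotypes: the strains CO13N, RG11N and CS, and the cross CS/CO13N, called the hybrid below. In the series' terms, males of CO13N and of the hybrid are selective, and males of RG11N and CS are promiscuous. The labels give no treatment, age, number of flies per library or direction of the cross, and the hybrid shares alleles by descent with CO13N and with CS. Each strain is a single genotype, so a difference between the classes is a difference between these 4 genotypes.

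In the eye, light turns an opsin into an active receptor, which switches on the Gq protein. Its alpha subunit activates a phospholipase C, and the breakdown of membrane phosphoinositides that follows opens cation channels of the TRP family. Arrestins then bind the active opsin and end the signal. Some of these proteins also act outside the eye in flies, among them *norpA* in taste and temperature sensing. In a whole leg, fewer cells of a type and less RNA per cell cannot be told apart.

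*Galphaq* (FBgn0004435, chromosome 2R, 12612740 to 12623197, dm6) encodes the G protein alpha subunit, and *norpA* (FBgn0262738, chromosome X, 4322626 to 4365408) the phospholipase C of the photoreceptor. *trp* (FBgn0003861, chromosome 3R, 29914521 to 29920289) and *trpl* (FBgn0005614, chromosome 2R, 9753697 to 9765518) encode the light-activated cation channels. *inaD* (FBgn0001263, chromosome 2R, 22855688 to 22858794) encodes the scaffold that holds TRP, the phospholipase and the kinase together, and *inaC* (FBgn0004784, chromosome 2R, 16898535 to 16901575) encodes that kinase, an eye protein kinase C. *Arr1* (FBgn0000120, chromosome 2L, 18078269 to 18081307) and *Arr2* (FBgn0000121, chromosome 3L, 8647261 to 8648936) encode the arrestins. Exons of *inaD* share 7 bases with *RpL23* on the opposite strand. Of the 6910 exon bases of *Galphaq*, 3050 (44.1%) are also annotated to *CG45086* on the same strand. All 3050 exon bases of *CG45086* lie in that stretch, and it has 0 counts in the table, so reads from there may have been dropped or given to *Galphaq*. *norpA*, *trpl* and *Arr2* overlap other genes only outside their own exons, and *trp*, *inaC* and *Arr1* overlap none.

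Depth ranged from 26374831 to 36034966 counts per library, and 3 counts correspond to 0.0833 to 0.114 CPM (counts of a gene per 1000000 counts of the library). The rule describes the leg as almost free of opsin transcripts, and the 7 opsin genes together reached 1.32 to 12.6 CPM. Of 8 retina markers, *Pph13* and *ort* had 0 counts, *gl*, *chp* and *Crys* had 36, 75 and 22 counts over the 12 libraries, and *eys*, *Hdc* and *sev* averaged 49.0, 551 and 126 CPM; *eys* and *Hdc* are also known from mechanosensory neurons. The summed neuron markers (9 genes) reached 7776 to 8403 CPM in RG11N and 5071 to 6942 CPM in the other 9 libraries. The summed leg taste neuron markers (8 genes) reached 2315 to 2322 CPM in RG11N and 1387 to 2085 CPM in the other 9 libraries. That sum is mostly *ppk23*, which averaged 1742 CPM in RG11N and 986 to 1124 CPM in the other genotypes. *ppk25*, *ppk29*, *Gr32a* and *Gr64f* also had their highest mean in RG11N, while *Ir76b*, *Ir25a* and *Gr66a* had their lowest there. The summed odorant receptor genes (59 genes, without *Orco*), known from the antenna and palp, reached 40.4 to 126 CPM in 5 libraries, all 3 of CS, hybrid replicate 3 and RG11N replicate 3, and 13.1 to 23.0 CPM in the other 7. Muscle markers summed to 1013 to 13555 CPM and varied within each genotype.

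Compared per exon length, the 8 genes spread over a wide range in the leg, and the label "expressed in the leg" held for only some of them. Levels per length are CPM divided by exon length in kilobases (RPKM), averaged over the 12 libraries. *Galphaq* stood at 14.4 RPKM and *norpA* at 11.97, above the median of 8.43 RPKM of the tested genes, at their 63.7th and 59.0th percentiles. The level of *Galphaq* becomes 25.8 RPKM when only its 3860 unshared exon bases are counted as its length. *trpl* followed at 1.24 RPKM, *trp* at 0.561 and *Arr1* at 0.258. *inaC*, *Arr2* and *inaD* stood at 0.0455, 0.0287 and 0.00374 RPKM. The upstream enzymes of the cascade were thus present at ordinary levels, the channels at low levels, and the scaffold, the kinase and *Arr2* nearly absent. Of the 8 genes, 5 passed the filter on low counts and were tested; *inaD*, *inaC* and *Arr2* were not.

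**Figure D1:**
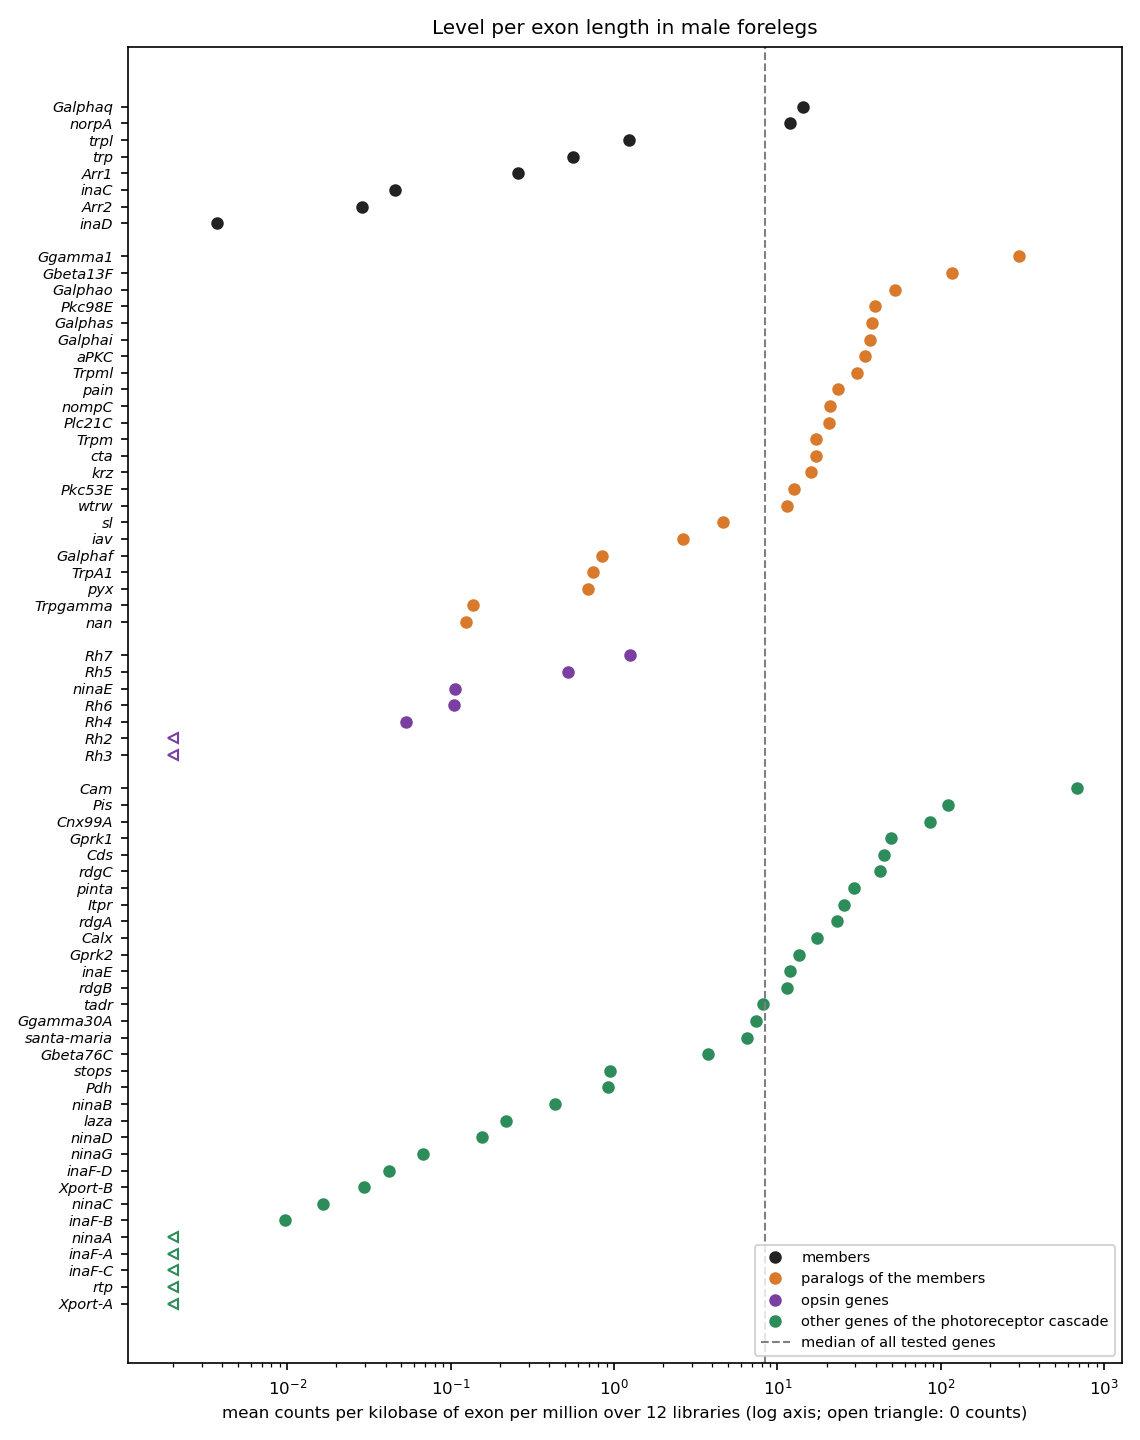
Mean level per exon length over 12 libraries (x axis, RPKM, log scale) of the 8 phototransduction genes (labelled members), their paralogs, the opsin genes and the other genes of the photoreceptor cascade. *Gbeta13F* and *Ggamma1*, which are not related to a member, are plotted with the paralogs. The dashed line is the median of the tested genes (8.43). *Galphaq* and *norpA* lie to the right of it, the other 6 members to the left, and open triangles mark genes with 0 counts.

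*norpA* separated the selective from the promiscuous genotypes in every library. It stood at 77.8, 70.6 and 78.8 CPM in CO13N replicates 1 to 3 and at 78.2, 78.5 and 84.9 CPM in the hybrid. It stood at 103, 108 and 121 CPM in CS and at 131, 110.3 and 149 CPM in RG11N. The highest selective library, hybrid replicate 3, therefore lay below the lowest promiscuous one, CS replicate 1, while CS and RG11N overlapped each other, as did CO13N and the hybrid. Group means were 75.7 CPM ± 4.46 in CO13N, 80.5 ± 3.81 in the hybrid, 130.1 ± 19.6 in RG11N and 111 ± 9.04 in CS (SD, n = 3 each).

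Averaged over both genotypes of each class, *norpA* was 1.54-fold lower in the selective genotypes, a log2 fold change of -0.62 ± 0.09 (standard error; edgeR quasi-likelihood test, Benjamini-Hochberg adjusted p = 0.000509). It was the only one of the 5 tested genes called in this contrast, at an adjusted p under 0.05, against 3.92% of all 10996 genes tested. Library ranges of the classes did not overlap in 1.92% of the tested genes. Some cell type markers were also called in this contrast: 2 of 9 neuron markers were lower (*elav*, -0.46 ± 0.10, and *cpx*, -0.42 ± 0.11), 1 of 6 chordotonal markers was lower (*btv*, -0.37 ± 0.10), and 2 of 5 glia markers were higher (*moody*, 0.63 ± 0.11, and *loco*, 0.61 ± 0.11). The summed markers overlapped between the classes, at 5345 to 6942 CPM in selective and 5071 to 8403 CPM in promiscuous libraries for neurons, 273.7 to 351 and 257 to 340.4 CPM for chordotonal organs and 801 to 1079 and 614 to 1152 CPM for glia. The glia sum is mostly *Gs2*, which averaged 654 CPM, beside 98.7 CPM for *moody* and 81.9 CPM for *loco*. By itself *moody* did not overlap between the classes, at 102.8 to 133.7 CPM in selective and 55.1 to 87.8 CPM in promiscuous libraries. Of 8 leg taste neuron markers 0 were called in this contrast (1 at an unadjusted p under 0.05). The part of glia, chordotonal and taste neuron content in the difference of *norpA* was not tested. Every alternative fit kept the call, with log2 fold changes from -0.67 to -0.53; that includes the fits with the odorant receptor sum (-0.53, adjusted p = 0.0174) or the neuron marker sum (-0.59, adjusted p = 0.00727) as a covariate. With no strain term, in 2 classes of 6 libraries, the adjusted p was 0.00305. Over the 4 genotypes together the adjusted p of *norpA* for any difference was 0.00139, and 6.47% of tested genes were called in that test.

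**Figure D2:**
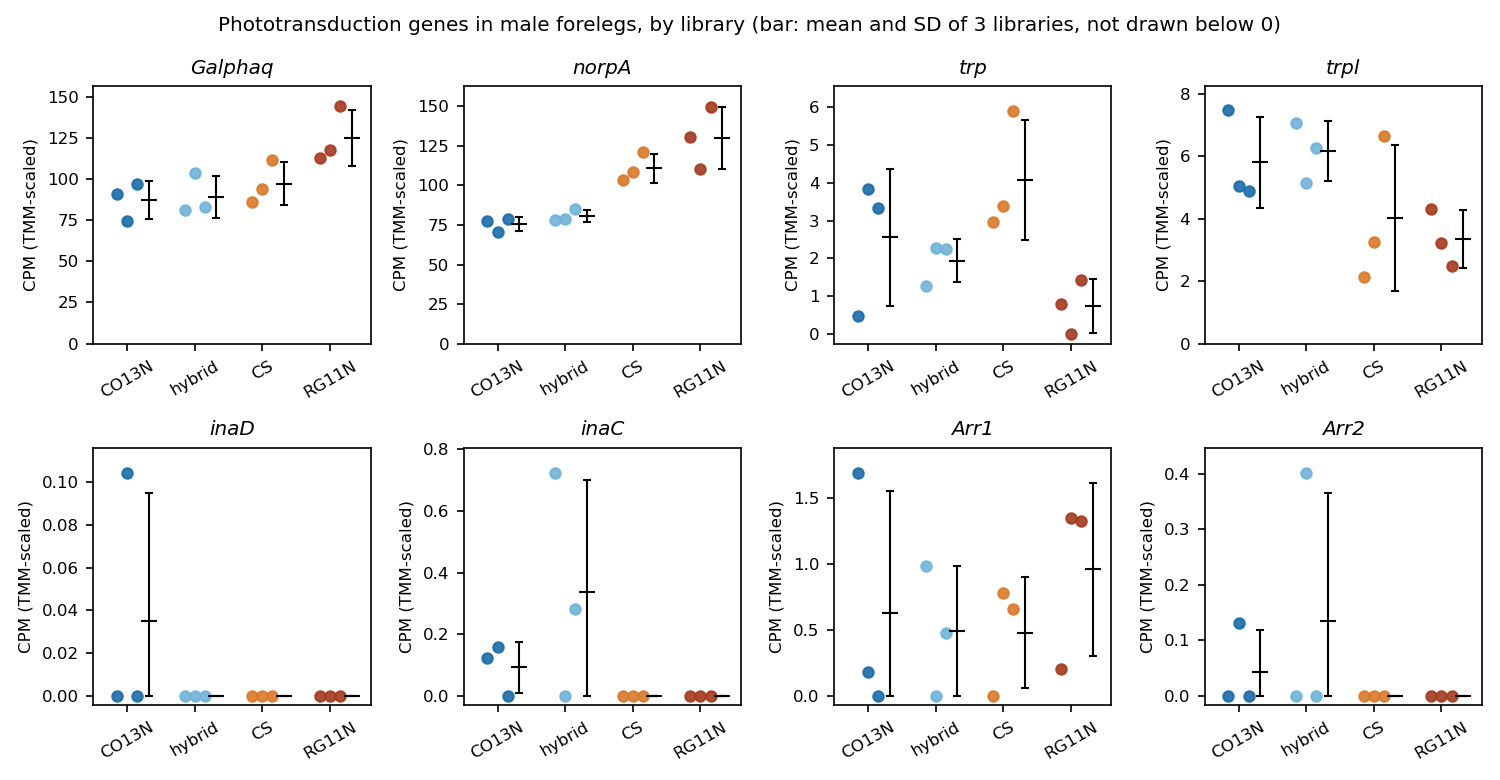
Level of each of the 8 genes in each library (points, TMM-scaled CPM, y axes differ), by genotype; the bar beside each set of points is the mean and SD of 3 libraries, not drawn below 0. All 6 selective libraries of *norpA* lie between 70.6 and 84.9 CPM and all 6 promiscuous ones between 103 and 149 CPM, while points at 0 are frequent for *inaD*, *inaC*, *Arr1* and *Arr2*.

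The pairs of genotypes behind that contrast were not equally clear. *norpA* was lower in CO13N than in RG11N (-0.78 ± 0.13, adjusted p = 0.00184) and lower in the hybrid than in RG11N (-0.69 ± 0.13, adjusted p = 0.00428). It was also lower in CO13N than in CS (-0.55 ± 0.13, adjusted p = 0.0269). In each of these pairs *norpA* was the only tested member called, where 4.1%, 4.47% and 3.14% of all tested genes were called. The library ranges of the pairs did not overlap for *norpA*, as for 22.7%, 23.3% and 19.7% of tested genes. Between the hybrid and CS the difference was -0.46 ± 0.13 with an adjusted p of 0.156 in edgeR and 0.0282 in DESeq2. In that pair edgeR called 0 members (1 at an unadjusted p under 0.05, DESeq2 1, voom 0), with 0.973% of tested genes called and 14.6% not overlapping. Counting the 6 pairs, *norpA* was called in 3, and 3.05% of tested genes were called in at least 3.

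The call between CO13N and CS was the least stable of those 3. It was lost without any 1 of CO13N replicates 1, 2 and 3 and CS replicates 2 and 3, with adjusted p up to 0.136 and log2 fold changes of -0.62 to -0.50 over the 12 omissions. With the summed odorant receptor genes as a covariate the difference was -0.38 (adjusted p = 0.547). All 3 CS libraries are among the 5 with high odorant receptor sums, so strain and that sum cannot be told apart in this pair. The calls against RG11N kept their sign and stayed close in size with the neuron marker sum as a covariate, at -0.72 for CO13N and -0.63 for the hybrid, but adjusted p rose to 0.174 and 0.211; the sum separates RG11N from all other libraries. Without the libraries high in odorant receptors, an alternative added after seeing the data, the difference of the hybrid from RG11N was -0.61 (adjusted p = 0.0649) and that of CO13N from RG11N -0.66 (adjusted p = 0.0215). The leg taste neuron marker sum, which is mostly *ppk23*, separates RG11N from the other libraries too, and no fit used it as a covariate. The part of neuron content or antennal RNA in these differences was not tested beyond these fits.

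**Figure D3:**
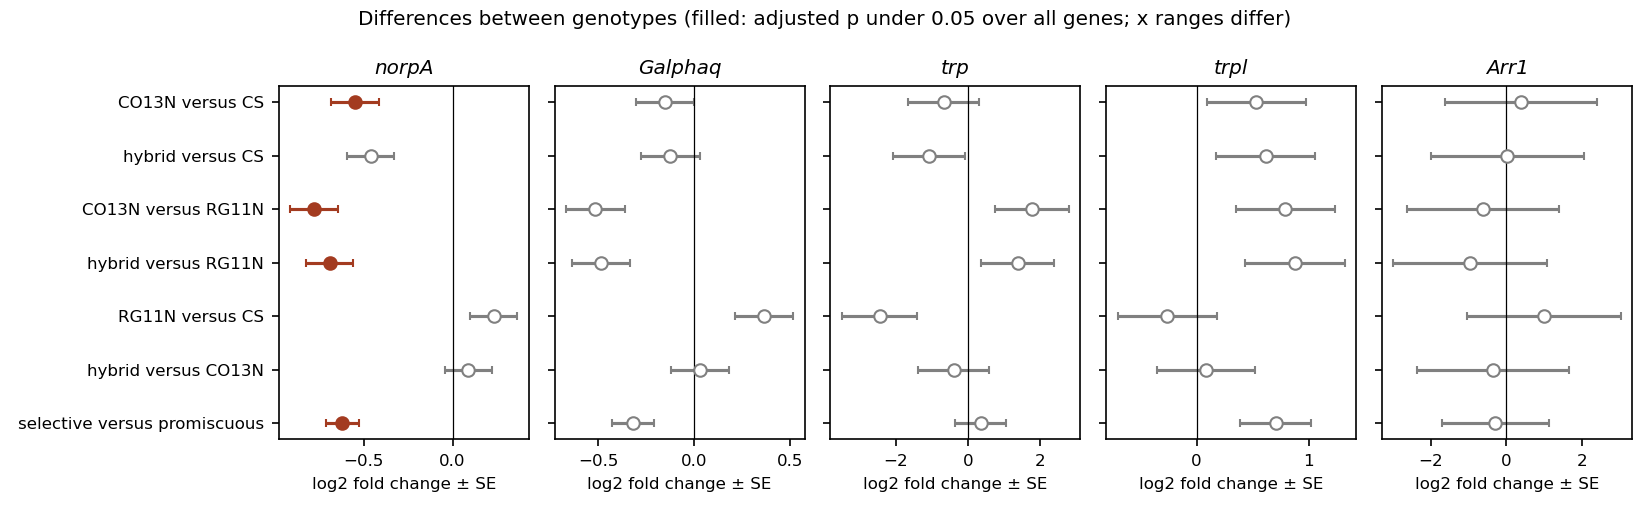
Log2 fold change and standard error (x axis, ranges differ) of the 5 tested genes in 6 pairs of genotypes and in the averaged contrast of selective with promiscuous genotypes. Filled points have an adjusted p under 0.05 over all 10996 genes, and the 4 filled points all belong to *norpA*.

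*norpA* lies on the X chromosome, of which males have a single copy. Within 100 kb of either end of the gene 28 other genes are annotated and 8 were tested. In the averaged contrast edgeR called 0 of these 8 (0 at an unadjusted p under 0.05, DESeq2 0, voom 0). Their lowest adjusted p was 0.435. The nearest tested genes, *CG3626*, *mRpL33* and *NO66*, had log2 fold changes of 0.21 ± 0.12, 0.28 ± 0.29 and 0.23 ± 0.18.

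*Galphaq* was highest in RG11N, and no difference in it passed the test. It stood at 90.6, 74.3 and 96.8 CPM in CO13N, at 80.8, 103 and 82.7 CPM in the hybrid, at 85.7, 94.1 and 111 CPM in CS and at 113, 117 and 144 CPM in RG11N. All 3 RG11N libraries were above all other 9, whereas CO13N, the hybrid and CS overlapped. Against RG11N, library ranges did not overlap in 22.7% (CO13N), 23.3% (hybrid) and 21.5% (CS) of tested genes. The share for RG11N against all other libraries was not counted. The differences from RG11N were -0.52 ± 0.15 in CO13N (adjusted p = 0.0667) and -0.49 ± 0.15 in the hybrid (adjusted p = 0.0806), and RG11N differed from CS by 0.36 ± 0.15 (adjusted p = 0.199). DESeq2 called the differences of CO13N and the hybrid from RG11N (adjusted p = 0.0307 and 0.0464), and edgeR called that of CO13N with a filter of 5 CPM (0.0484), without CS replicate 3 (0.0439) or without RG11N replicate 1 (0.0429). With the neuron marker sum as a covariate the differences were -0.16 and -0.17. RG11N is also the genotype with the highest neuron marker sums, and the part of neuron content in the level of *Galphaq* was not tested further.

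**Figure D4:**
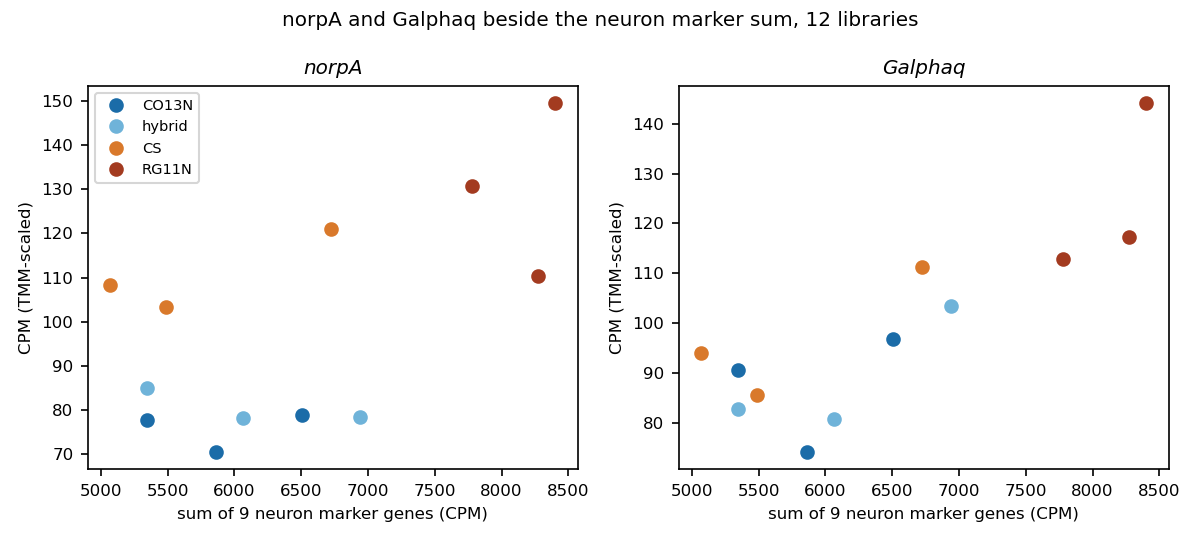
Level of *norpA* and of *Galphaq* (y axes, TMM-scaled CPM) against the summed CPM of 9 neuron marker genes (x axis) in 12 libraries, coloured by genotype. The RG11N libraries lie at the right of both panels; at neuron sums of 5071 to 6942 CPM the CS libraries lie above the CO13N and hybrid libraries for *norpA* and overlap them for *Galphaq*.

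The light-activated channels were sparse, and their highest genotypes differed. *trp* had 873 counts in all. It stood at 0.484, 3.84 and 3.33 CPM in CO13N, at 1.28, 2.28 and 2.25 CPM in the hybrid, at 2.96, 3.38 and 5.88 CPM in CS and at 0.798, 0 and 1.42 CPM in RG11N. Its highest genotype, CS, and its lowest, RG11N, are both promiscuous and did not overlap, with a difference of -2.45 ± 1.05 (adjusted p = 0.208; DESeq2 0.0918). The hybrid also lay below CS without overlap (-1.07 ± 1.00, adjusted p = 0.858), where 14.6% of tested genes did not overlap. In RG11N against CS edgeR called 0 of the 5 tested members (2 at an unadjusted p under 0.05, DESeq2 0, voom 0), with 5.77% of tested genes called and 21.5% not overlapping. CO13N alone spanned most of the range of *trp*, from 16 counts in replicate 1 to 147 in replicate 2.

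*trpl* had 1850 counts. It stood at 7.50, 5.04 and 4.91 CPM in CO13N, at 7.08, 5.15 and 6.28 CPM in the hybrid, at 2.14, 3.27 and 6.65 CPM in CS and at 4.33, 3.24 and 2.49 CPM in RG11N. Both selective genotypes lay above RG11N without overlap, and CS replicate 3 lay among the selective libraries. Library ranges did not overlap in 22.7% of tested genes for CO13N versus RG11N and in 23.3% for hybrid versus RG11N. The averaged contrast gave 0.71 ± 0.31 with an adjusted p of 0.26 (DESeq2 0.219), so the higher level in selective legs did not pass the test. Between the hybrid and CO13N, *trpl* differed by 0.09 ± 0.44. In that pair edgeR called 0 of the 5 members (0 at an unadjusted p under 0.05, DESeq2 0, voom 0), against 0.255% of tested genes called and 11.5% not overlapping.

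*Arr1*, the arrestin also known from olfactory neurons of flies, was detected in 9 libraries with 235 counts. It reached 1.69, 0.183 and 0 CPM in CO13N, 0.988, 0 and 0.479 CPM in the hybrid, 0.199, 1.35 and 1.32 CPM in RG11N and 0, 0.778 and 0.662 CPM in CS. Libraries of 1 genotype thus spanned from none to most of its range, the standard error of each pairwise log2 fold change was about 2, and no difference could be read at this depth. The 5 libraries high in odorant receptors had 0 to 41 counts of *Arr1*, and the other 7 had 0 to 56; the part of antennal RNA in its level was not tested.

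*inaC*, *Arr2* and *inaD*, which photoreceptors make in large amounts, were nearly absent. *inaC* had 4 and 6 counts in CO13N replicates 1 and 2, 22 and 10 in hybrid replicates 1 and 3 and 0 in the other 8 libraries, among them all 6 promiscuous ones. Against a floor of 3 counts pooled over CS and RG11N, the 42 counts of the selective libraries give a ratio of levels of 12.9. Without hybrid replicate 1 the ratio is 7.2. *Arr2* had 5 counts in CO13N replicate 2 and 12 in hybrid replicate 2, a ratio of 5.2 by the same floor. Without hybrid replicate 2 that ratio is 1.81. *inaD* had 4 counts, all in CO13N replicate 2. These genes were below the filter and have no test. The ratios cover counting error only and leave out the spread between libraries, so they set no lower bound on a class difference. The share of all genes with 0 counts in a whole class was not counted.

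Against the log2 mean of its named parents CO13N and CS, edgeR called 0 of the 5 tested members in the hybrid (0 at an unadjusted p under 0.05, DESeq2 0, voom 0), with 0.109% of tested genes called. Mean log2 CPM of the hybrid lay between the parents for *norpA* (6.33, against 6.24 in CO13N and 6.79 in CS), *Galphaq* and *Arr1*, and above both for *trpl* (2.63, against 2.53 and 1.87). For *trp* the place depends on the scale: mean log2 CPM was 0.96 in the hybrid and 0.95 in CO13N, while mean CPM was 1.94 in the hybrid, 2.55 in CO13N and 4.08 in CS. A male carries a single X-linked *norpA* allele, and the labels do not say from which strain the hybrid males have it, so a mid-parent level may not apply to *norpA*.

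Opsins, the light receptors, lay below the median per length. *Rh7*, which is also known from the brain of flies, was the most abundant at 1.25 RPKM. Its level was 11.5, 6.82 and 9.17 CPM in CO13N, 3.16, 3.38 and 7.15 CPM in the hybrid, 4.87, 4.24 and 4.94 CPM in RG11N and 3.19, 1.40 and 0.418 CPM in CS. Every CO13N library was above every CS library, and the hybrid overlapped both. Between CO13N and CS, library ranges did not overlap in 19.7% of tested genes, and 3.14% were called. *Rh7* was higher in CO13N than in CS by 2.45 ± 0.56 (adjusted p = 0.0185), a call lost in voom, with the summed odorant receptor genes as a covariate, in a fit of the pair alone and without CO13N replicate 1 or CS replicate 2 (adjusted p up to 0.114). With the odorant receptor covariate the difference was 2.70. *Rh7* was the only one of the 4 tested opsin genes called in any pair. Its averaged contrast gave 1.21 ± 0.38 with an adjusted p of 0.0891. *Rh5* had 314 counts in 11 libraries, at 0 to 1.89 CPM. The main eye opsin gene *ninaE* had 67 counts, *Rh6* 62 and *Rh4* 28, and *Rh2* and *Rh3* had 0.

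**Figure D5:**
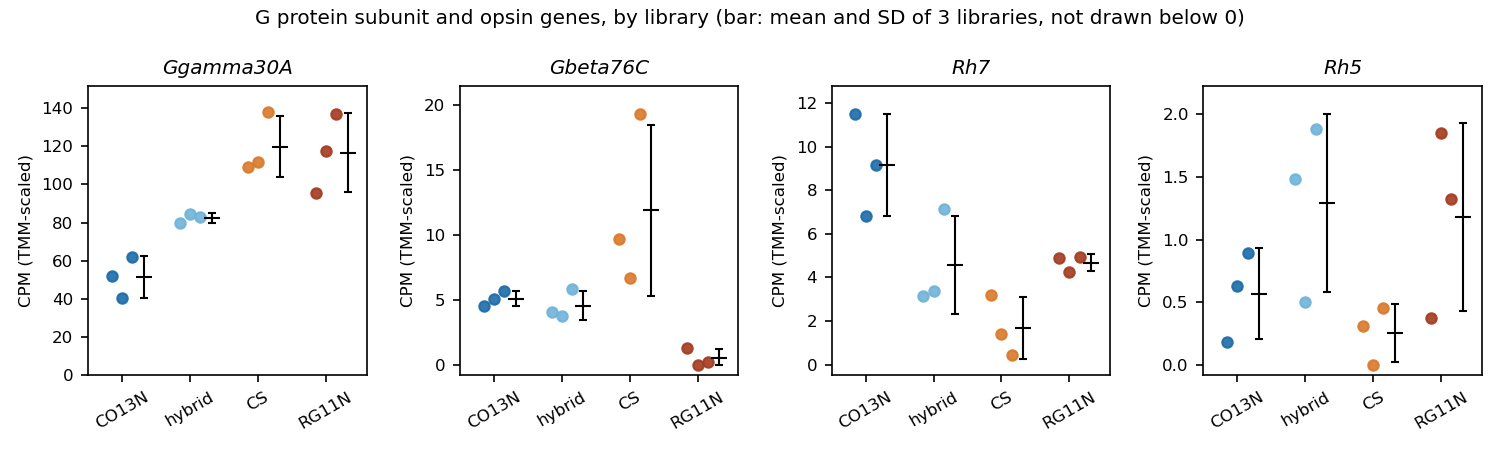
Level of the G protein gamma and beta subunit genes *Ggamma30A* and *Gbeta76C* and of the opsin genes *Rh7* and *Rh5* in each library (points, TMM-scaled CPM, y axes differ), by genotype, with mean and SD of 3 libraries. *Ggamma30A* lies at 40.3 to 84.6 CPM in the selective libraries and at 95.7 to 138 CPM in the promiscuous ones.

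The gamma subunit that partners *Galphaq* in the eye, *Ggamma30A*, separated the classes in every library, as *norpA* did. It stood at 52.1, 40.3 and 61.9 CPM in CO13N, at 79.6, 84.6 and 83.1 CPM in the hybrid, at 109, 112 and 138 CPM in CS and at 95.7, 118 and 137 CPM in RG11N. No selective library reached a promiscuous one, and the hybrid lay above CO13N and below CS. Library ranges did not overlap in 1.92% of tested genes between the classes. That share was 11.5% for hybrid versus CO13N and 14.6% for hybrid versus CS. *Ggamma30A* was lower in CO13N than in CS (-1.22 ± 0.17, adjusted p = 0.000159) and than in RG11N (-1.18 ± 0.17, adjusted p = 0.000263), and lower in the averaged contrast (-0.86 ± 0.12, adjusted p = 0.000138). These calls held in all alternatives run except that between CO13N and RG11N with the neuron marker sum as a covariate (adjusted p = 0.15). The hybrid differed from CS by -0.54 ± 0.16 (adjusted p = 0.196), from RG11N by -0.50 ± 0.16 (adjusted p = 0.0965) and from CO13N by 0.68 ± 0.16 (adjusted p = 0.138); DESeq2 and voom called the last of these.

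*Gbeta76C*, the beta subunit of the same eye G protein, went with strain in another way. It stood at 4.51, 5.02 and 5.68 CPM in CO13N, at 4.05, 3.71 and 5.83 CPM in the hybrid, at 9.69, 6.65 and 19.3 CPM in CS and at 1.31, 0 and 0.226 CPM in RG11N. RG11N differed from CS by -4.49 ± 0.94 on the log2 scale (adjusted p = 0.0164), a call lost with the odorant receptor or neuron covariate, in a fit of the pair alone and without RG11N replicate 3 (adjusted p up to 0.189). The difference was -4.56 with the odorant receptor covariate and -4.68 with the neuron covariate. The general subunits *Gbeta13F* and *Ggamma1* were far more abundant per length, at 117 and 303 RPKM against 3.75 for *Gbeta76C* and 7.38 for *Ggamma30A*.

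Of 32 other genes of the photoreceptor cascade, 22 were tested. edgeR called 0 higher and 1 lower in CO13N versus CS, 0 and 2 in CO13N versus RG11N, 2 and 1 in RG11N versus CS, and 0 and 1 in the averaged contrast. Over all tested genes 3.14%, 4.1%, 5.77% and 3.92% were called in these comparisons. The counts of 1 of 22 are near their shares. The 2 of 22 in CO13N versus RG11N and 3 of 22 in RG11N versus CS lie above theirs, by few genes, which was not tested. The list's median log2 fold change in the averaged contrast was -0.10, beside 0.01 over all tested genes. Besides the G protein subunits, the called genes were *Cam* and *rdgC*. *Cam*, which encodes calmodulin, was lower in CO13N than in RG11N (-0.67 ± 0.15, adjusted p = 0.0155) and higher in RG11N than in CS (0.61 ± 0.15, adjusted p = 0.0222). *rdgC*, the rhodopsin phosphatase gene, was higher in RG11N than in CS (0.53 ± 0.15, adjusted p = 0.0387). All 3 of these calls involve RG11N and ended with the neuron marker sum as a covariate (adjusted p = 0.783, 0.945 and 0.997). With that covariate the calls over all genes fell from 451 to 85 in CO13N versus RG11N. In RG11N versus CS they fell from 634 to 114. The call of *Cam* against CO13N was also lost without CO13N replicate 2 or RG11N replicate 2 or 3 (adjusted p up to 0.0717), in a fit of the pair alone (0.0749) and without the libraries high in odorant receptors (0.163), and without CO13N replicate 1 its adjusted p rounds to 0.05. Both calls against CS were lost without CS replicate 1 or 2 or RG11N replicate 2 or 3 (adjusted p up to 0.115 for *Cam* and 0.208 for *rdgC*). They were lost as well with the odorant receptor covariate (0.0512 and 0.139) and in a fit of the pair alone (0.0581 and 0.106), and that of *rdgC* in voom (0.0513) and with the muscle covariate (0.0596). Between the hybrid and CS, RG11N or CO13N edgeR called 0 of the 22 (4, 5 and 2 at an unadjusted p under 0.05, DESeq2 1, 3 and 1, voom 0, 1 and 1). Over all tested genes edgeR called 0.973%, 4.47% and 0.255% in these pairs.

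Within that list levels ran from 0 counts to far above the median. *ninaA*, *rtp*, *Xport-A*, *inaF-A* and *inaF-C* had 0 counts. All exon bases of *Xport-A* are shared with a neighbour on its own strand, and all 871 of *ninaA* with one on the opposite strand. Reads there may not have been assigned, so these 2 zeros cannot be read as absence. *inaF-A* and *inaF-C* share 76.5% and 61.3% of theirs with each neighbour on their own strand, and reads in these parts may not have been assigned either. *rtp* shares 197 (20.5%) with a neighbour on the opposite strand, and its other exon bases also gave 0 counts. *ninaC* had 29 counts, all in CS replicates 1 and 2. *Cnx99A*, the calnexin gene needed for opsin folding in the eye, stood at 85.6 RPKM, and *pinta* and *santa-maria*, genes of retinoid and carotenoid handling, at 29.4 and 6.55 RPKM; these 3 are named here after their values were seen. *ninaB*, the enzyme that cleaves carotenoids for the chromophore, was found only in the 5 libraries high in odorant receptors. It had 20 to 152 counts there and 0 in the other 7, and it is named outside the rule given below. *rdgA*, the diacylglycerol kinase gene, and *Itpr*, the IP3 receptor gene, stood at 23.0 and 25.7 RPKM and differed between the classes by -0.09 ± 0.09 and 0.06 ± 0.10, without a call. *stops*, which in the eye is needed for normal NORPA protein and is named here after its values were seen, stood at 3.18, 4.91 and 4.91 CPM in CO13N, 1.28, 2.68 and 2.25 CPM in the hybrid, 0.997, 1.67 and 1.42 CPM in RG11N and 0.918, 1.24 and 0.453 CPM in CS. Its averaged difference, 1.46 ± 0.51, did not pass in edgeR (adjusted p = 0.131) and was called in DESeq2.

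Closely related genes mostly did not pass a test. Of 24 genes listed as paralogs of the 8 genes 23 were matched and tested. The list also holds *Gbeta13F* and *Ggamma1*, general beta and gamma subunit genes. They are counterparts of *Gbeta76C* and *Ggamma30A* and not of any of the 8 genes. edgeR called *Ggamma1* lower in CO13N than in RG11N (-0.49 ± 0.13, adjusted p = 0.0418) and the channel gene *wtrw* higher in RG11N than in CS (0.58 ± 0.15, adjusted p = 0.0259), where 4.1% and 5.77% of all tested genes were called. Both calls ended with the neuron covariate (*Ggamma1* -0.21, *wtrw* 0.91), the odorant receptor covariate (-0.47, 0.53) and in a fit of the pair alone. That of *Ggamma1* was also lost with the muscle covariate, without the libraries high in odorant receptors and without CO13N replicate 1 or 2, CS replicate 2 or RG11N replicate 2 or 3 (adjusted p up to 0.197), and that of *wtrw* without CS replicate 2 or 3 or RG11N replicate 1 (adjusted p up to 0.0916). In the averaged contrast it called 0 of the 23 (6 at an unadjusted p under 0.05, DESeq2 1, voom 0), where 3.92% of all tested genes were called, with a list median of -0.15 beside 0.01 over all tested genes. The paralogs set beside members here were chosen after their values were seen. *Plc21C*, the other phospholipase C beta gene of the fly, stood at 20.8 RPKM and differed between the classes by -0.07 ± 0.11, where *norpA* differed by -0.62 ± 0.09. The difference between these 2 effects was not tested. *Pkc53E*, a conventional protein kinase C like *inaC*, stood at 12.6 RPKM, and *krz*, a non-visual arrestin, at 16.2 RPKM, with class differences of -0.34 ± 0.12 and -0.04 ± 0.11 that did not pass.

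The tested genes whose log2 CPM was most like that of each member over the 12 libraries were listed by Pearson's r, chosen as the top 3 of 10995, as a description with no test; the libraries of a genotype share their genetic background. For *norpA* they were *CR43212* (r = 0.95) and *CR43211* (0.92), adjacent pseudogenes on chromosome X, 11595655 to 11597545 and 11597748 to 11599638, and *CG42260* (0.95) on chromosome 2R. *CG42260* averaged 1.88 CPM in CO13N, 2.50 in the hybrid, 10.9 in RG11N and 5.43 in CS, the same order of genotypes as *norpA*. For *Galphaq* they were *CG4911* (0.97), *sv* (0.96) and *shep* (0.96), each highest in RG11N. For the sparse genes the nearest were *Naa40*, *CG14615* and *ana1* for *trp* (0.94 to 0.91), *fs(1)N*, *CG3679* and *Fcp3C* for *trpl* (0.88 to 0.86), and *naz*, *CG14490* and *CG7692* for *Arr1* (0.86 to 0.80).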

How the data were processed

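PolyA RNA of male forelegs was sequenced from Nextera XT libraries, per the labels. The authors deposited raw counts per FlyBase gene in a single table; the submitters' processing notes name Subread and the build dm6, and strand, multi-mapping and annotation settings are not given in the sources used here. Of 17807 identifiers 17710 matched Ensembl release 115 (BDGP6), which gave symbols, positions and exon lengths.

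The counts were tested in edgeR 4.0.16 (R 4.3.3; TMM factors, filterByExpr with a minimum count of 10, robust quasi-likelihood F tests, 4 strain means, 8 residual degrees of freedom), with Benjamini-Hochberg adjustment over all 10996 genes tested and a threshold of 0.05. Each standard error is the log2 fold change over the square root of F. CPM are TMM-scaled, except that sums over markers use library totals; a prior count of 2 was added for log2 CPM. DESeq2 1.42.0, limma 3.58.1 (voom), other scalings and filters, covariates and omissions of each library were alternatives. The scripts were tested on simulated counts. Nothing states that replicates came from separate rearings, so p-values measure the spread between these libraries. The labels do not say that replicate numbers pair libraries, and the main fit did not pair them.

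The 8 genes and the gene lists were chosen with earlier results of these data known. Named genes are the 8 genes and 7 opsin genes, up to 4 called genes per list and comparison by lowest p, and the 3 most correlated genes per tested member; genes outside this rule are said to be. The pairs of genotypes share libraries, so their results are not independent.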

Additional observations from a re-analysis of the deposited data

How the results depend on the processing

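The averaged difference of *norpA* between selective and promiscuous genotypes kept its sign and its call in all 23 alternatives run. Counts of members called moved as follows. In CO13N versus CS the count was 0 with the odorant receptor covariate and 0 to 1 over the omissions of 1 library. In CO13N versus RG11N it was 2 in DESeq2 and with the filter of 5 CPM, 0 with the neuron covariate and 1 to 2 over the omissions. In hybrid versus CS it was 1 in DESeq2. In hybrid versus RG11N it was 2 in DESeq2, 0 with the neuron covariate and 0 without the libraries high in odorant receptors. For any difference among the 4 genotypes it was 2 in DESeq2. The members gained or lost were *norpA* and *Galphaq*. Fitting the replicate number as a block changed no count of members; it gave *norpA* an adjusted p of 0.018 in CO13N versus CS and 0.000338 in the averaged contrast. Deviations of same-numbered libraries correlated at -0.09 to 0.21, and of others at -0.13 to 0.10.

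Only uncalled differences changed sign, and the cause was not tested. With the neuron covariate *Galphaq* came to -0.022 in RG11N versus CS and -0.013 in hybrid versus CO13N, where the odorant receptor covariate gave -0.0003. *trp* came to 0.12 in CO13N versus CS with the odorant receptor covariate and to -0.10 between classes with no strain term. *Arr1* came to -0.006 (voom), -0.49 (block), -0.25 (neuron) and -0.77 (muscle) in CO13N versus CS. In hybrid versus CS it came to -0.64, -0.10 and -0.24 (block, neuron, muscle). In hybrid versus CO13N voom, neuron and muscle gave 0.54, 0.15 and 0.54, against the mid-parent 0.54, 0.021 and 0.15, and the odorant receptor covariate gave 0.33 between classes. Over omissions *Arr1* ranged from -2.33 to 0.95 (CO13N versus CS), -0.98 to 0.61 (hybrid versus CS), -1.35 to 2.36 (hybrid versus CO13N) and -1.17 to 1.20 (mid-parent). *trpl* ranged from -0.57 to 0.30 (RG11N versus CS) and -0.020 to 0.32 (hybrid versus CO13N), *trp* from -0.88 to 0.027 (hybrid versus CO13N), and *Galphaq* from -0.073 to 0.12 (hybrid versus CO13N) and -0.16 to 0.011 (mid-parent).

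Over all genes the count called between classes was 431, from 146 with no strain term to 786 in DESeq2; it was 345 (111 to 645) in CO13N versus CS, 451 (85 to 821) in CO13N versus RG11N, 107 (65 to 235) in hybrid versus CS, 492 (109 to 841) in hybrid versus RG11N, 634 (114 to 1047) in RG11N versus CS, 28 (7 to 88) in hybrid versus CO13N, 12 (2 to 43) against the mid-parent and 711 (343 to 1314) for any difference. Depth limits *inaD*, *inaC*, *Arr1* and *Arr2*, whose differences were not detectable beyond the counts given.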
